A study of Mus musculus with 6 samples.

Results

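The glucocorticoid receptor gene Nr3c1 and 8 genes that glucocorticoids are known to induce, Tsc22d3, Fkbp5, Per1, Zbtb16, Ddit4, Sgk1, Klf9 and Dusp1, were followed in the whole blood of mice from 2 kinds of housing. Each of the 9 genes is annotated to exactly 1 probe set that carries its symbol alone, so 9 of the 41345 probe sets of the array are described, with no minimum on their values. The mice were male outbred CD1 animals aged 9 weeks that had spent 2 weeks in a standard environment (SE, n = 3) or an enriched environment (EE, n = 3), and none had received an inflammatory stimulus. The SE enclosure held wood chip bedding and nesting material, and the EE enclosure was larger and added a running wheel, a nest house, a tunnel and deep bedding. RNA was extracted from whole blood and each mouse was measured on its own array. The values are log2 values that the authors normalized by robust multiarray average (RMA), and a log2 difference is the EE mean minus the SE mean, so that 1 stands for a doubling. The error beside it is its standard error from limma, a linear model that steadies each gene's spread with that of all probe sets, and p is unadjusted unless called adjusted. The mice were outbred, so they also differ genetically. Which arrayed mice shared a cage and the time of day at which blood was taken are not given in the sources used here, and hormone levels were not analysed here.

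Glucocorticoids (corticosterone in mice) are released by the adrenal cortex under control of the brain, with a daily rhythm and in response to stress. In the cell the hormone binds a receptor held ready by HSP90 and its cochaperones, and the receptor then moves to the nucleus, where it raises some genes by binding DNA and lowers many inflammatory genes. Blood leukocytes respond to these hormones, which lower circulating lymphocytes and raise circulating neutrophils. The comparison asks whether the RNA of this hormone system in resting blood differed with the housing of the mice.

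Across the 6 arrays, EE mouse 3 stood apart. Its array correlated with the others at 0.968 on average, against 0.978 to 0.981 for the rest, and on the first principal component (39.2% of the variance over all probe sets) it scored 70.9 where the others scored -23.5 to -4.79. On its array 8255 probe sets reached 100 or more on the linear scale, against 9027 to 9336 on the others, and the reason was not tested. The values of the 9 genes are therefore also given without this mouse. Cell markers of blood were present, with means of 100 or more on the linear scale for 11 of 11 B cell, 11 of 11 T cell, 12 of 12 monocyte, 12 of 12 platelet, 9 of 15 neutrophil, 8 of 10 red cell and 4 of 10 natural killer cell genes that have a probe set of their own. In bulk blood, fewer cells of a type and less RNA per cell cannot be told apart. By blood counts after the housing period, the paper reports a higher percentage of neutrophils and a lower one of lymphocytes in EE mice. It found no difference in the numbers of leukocytes. Whether the arrayed mice were among those counted is not stated.

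Of the 9 genes, Sgk1 was the one with a difference past an unadjusted p of 0.05, and it was higher in EE mice. The receptor gene and the targets Tsc22d3, Klf9 and Zbtb16 had group means within 0.05 of each other on the log2 scale. By limma's moderated test, fitted over all probe sets, 1 of 9 genes was higher and 0 of 9 were lower at an unadjusted p under 0.05, against 1.45% of all probe sets higher and 2.3% lower. None of the 9 passed an adjusted p of 0.05 (adjusted p = 1.00 for each, Benjamini-Hochberg over 41345 probe sets), and neither did any other probe set (0%, with 1548 at an unadjusted p under 0.05 and 0 after adjustment with array weights too). The groups overlapped for 9 of 9 genes, which does not set these genes apart, as most probe sets overlapped too. Groups without overlap were found in 8.37% of all probe sets, 3.76% with the EE group higher and 4.61% with it lower. The log2 difference was positive for 5 genes and negative for 4, with a median of 0.00 beside -0.01 over all probe sets.
The intervals bound what a difference could have been. In 8 of 9 genes the 95% interval of the fold lay between 0.5 and 2, the fold thresholds of the study, and in 6 of 9 it lay within 1.5-fold in either direction. These 6 were Nr3c1, Tsc22d3, Fkbp5, Per1, Zbtb16 and Klf9. Only 4 of the 9 genes (Nr3c1, Tsc22d3, Per1 and Dusp1) had a mean of 100 or more on the linear scale, the minimum of the study's methods. The other 5 lie lower on the array, where background makes up more of the signal and folds can be understated.

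**Figure D1:**
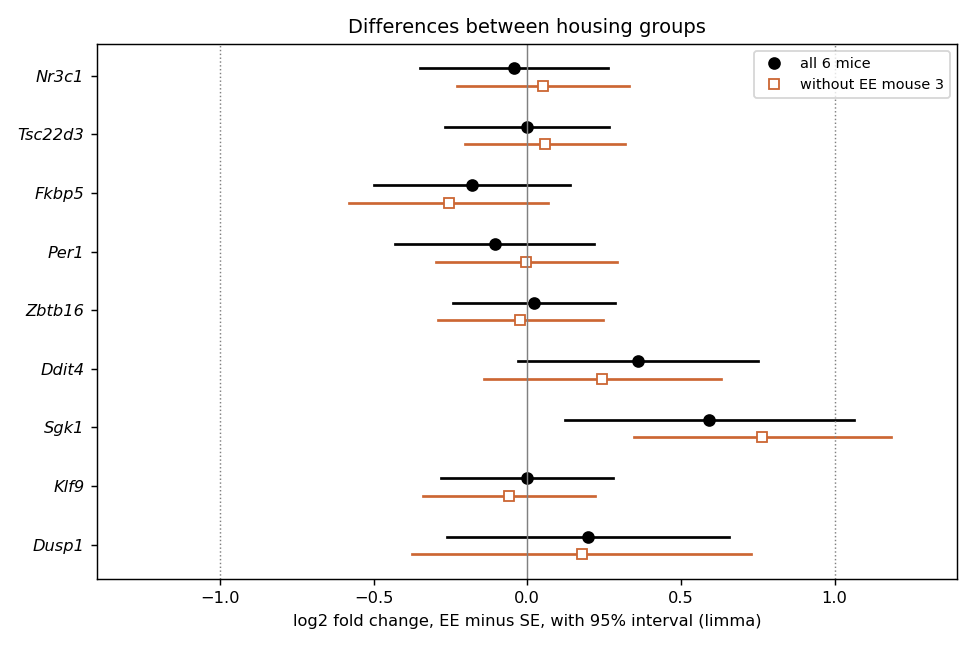
Log2 fold changes (EE minus SE) of the 9 genes with their 95% intervals from limma, for all 6 mice (black circles) and without EE mouse 3 (open squares), with dotted lines at a fold of 2 in either direction. The interval of Sgk1 lies above 0 in both fits, and those of the other 8 genes include 0 in both.

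Nr3c1 encodes the receptor itself, a transcription factor that is switched on by the hormone and is made in nearly all cells. Its probe set lay at 7.90, 8.10 and 8.03 in SE mice 1, 2 and 3, and EE mice 1, 2 and 3 gave 8.03, 8.09 and 7.78. EE mouse 3 was the lowest of all mice and EE mice 1 and 2 lay inside the range of the SE mice. The means were 8.01 ± 0.11 (SD, n = 3) in SE mice and 7.97 ± 0.16 (SD, n = 3) in EE mice, a log2 difference of -0.04 (error 0.13, 95% interval -0.35 to 0.26). Without EE mouse 3 it was 0.05 (95% interval -0.23 to 0.33). The receptor RNA thus differed between the groups by less than the spread between mice.

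Fkbp5 encodes an immunophilin that joins the HSP90 complex and lowers the affinity of the receptor for its hormone, a feedback loop, since the hormone induces it. It was listed at 4.96, 5.28 and 5.14 in SE mice 1, 2 and 3, and EE mice 1, 2 and 3 gave 4.84, 4.90 and 5.10. EE mice 1 and 2 were the lowest, and EE mouse 3 lay among the SE mice. The log2 difference was -0.18 (error 0.14, 95% interval -0.50 to 0.14, limma's unadjusted p = 0.222), and -0.26 without EE mouse 3 (limma's unadjusted p = 0.101). Its mean on the linear scale, 32.8, is well under 100.

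Among the targets that restrain signalling, Tsc22d3 encodes the leucine zipper protein GILZ, which binds NF-κB and AP-1 and carries part of the anti-inflammatory action of glucocorticoids. It lay at 6.997, 7.08 and 7.13 in SE mice 1, 2 and 3, and EE mice 1, 2 and 3 gave 7.16, 7.09 and 6.95. The EE mice spanned the whole range of the SE mice, with mouse 1 the highest of all and mouse 3 the lowest. With means of 7.07 in both groups, the log2 difference was 0.00 (95% interval -0.27 to 0.27), which is a fold between 0.83 and 1.20, and without EE mouse 3 it was 0.06 (95% interval -0.20 to 0.32).
Dusp1 encodes a phosphatase that switches off the MAP kinases p38 and JNK. It lay at 8.71, 8.24 and 7.95 in SE mice 1, 2 and 3, and EE mice 1, 2 and 3 gave 8.52, 8.43 and 8.53. The EE mice were close together, with an SD of 0.06 against 0.38 in SE mice, and they lay between SE mice 2 and 1. The log2 difference was 0.20 (error 0.19, 95% interval -0.26 to 0.66, limma's unadjusted p = 0.345), and 0.18 without EE mouse 3. Without SE mouse 1, the highest, it was 0.40 (limma's unadjusted p = 0.0313), while without SE mouse 3, the lowest, it was 0.02.
Ddit4 encodes REDD1, an inhibitor of the growth kinase complex mTORC1 that is induced by glucocorticoids, hypoxia and energy stress. It lay at 5.94, 6.20 and 6.20 in SE mice 1, 2 and 3, and EE mice 1, 2 and 3 gave 6.53, 6.18 and 6.70. EE mice 1 and 3 were above every SE mouse and EE mouse 2 was among them. The log2 difference was 0.36 (error 0.17, 95% interval -0.03 to 0.75, limma's unadjusted p = 0.0661). It was 0.24 without EE mouse 3 (limma's unadjusted p = 0.172), and 0.51 without EE mouse 2 (limma's unadjusted p = 0.0161).

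**Figure D2:**
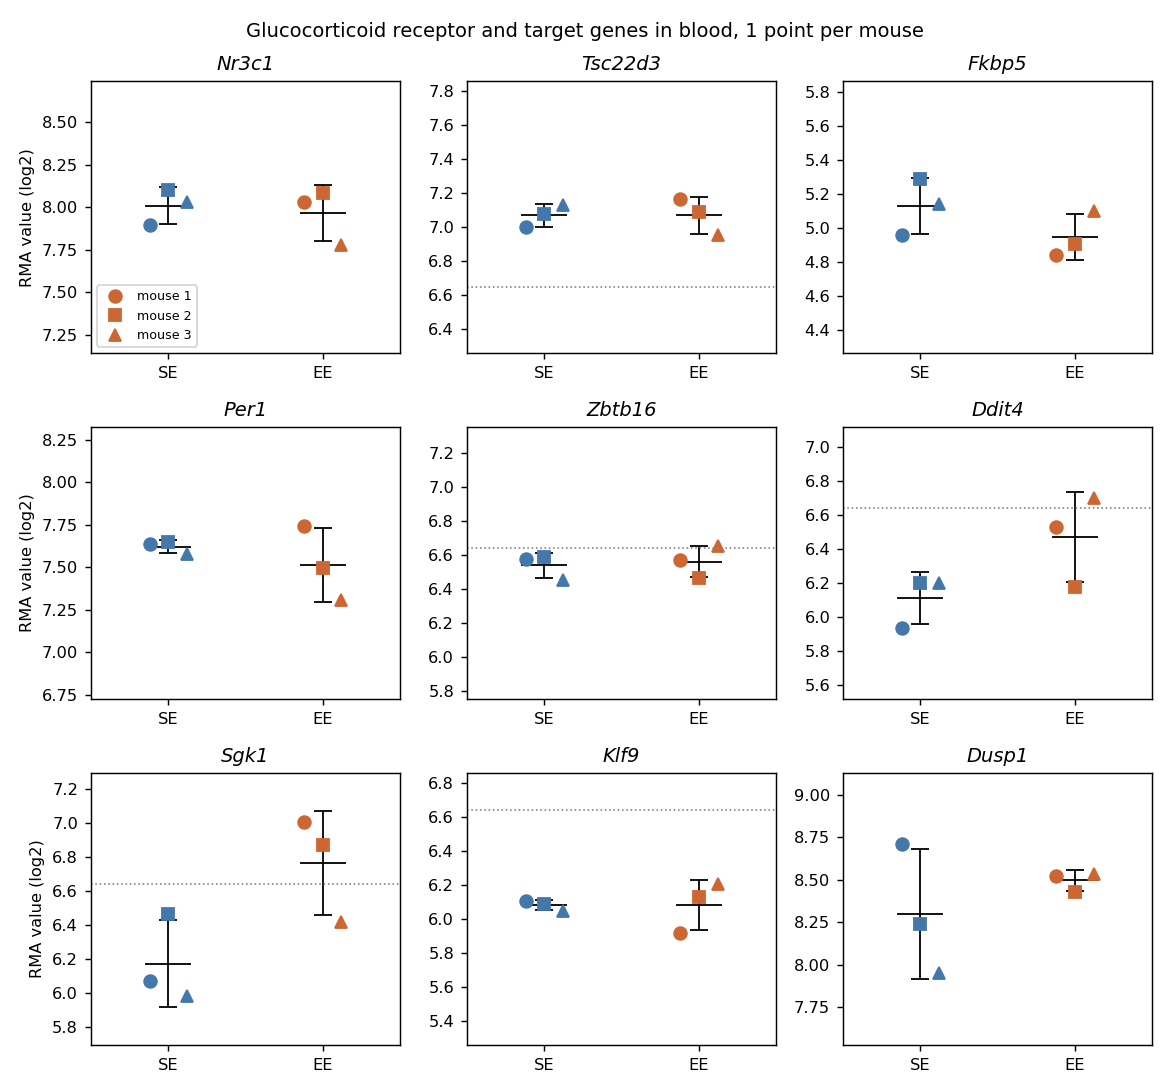
RMA values (log2) of the receptor gene and its 8 targets, 1 point per mouse with circles, squares and triangles for mice 1, 2 and 3 of each group, a horizontal line at the group mean and bars of 1 SD (n = 3). Each panel spans the same range of log2 values, and the dotted line marks 100 on the linear scale. EE mice 1 and 2 lie above all SE mice for Sgk1, and in every panel the groups overlap.

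Sgk1 encodes a serine/threonine kinase related to AKT that regulates ion channels and transporters, and it is also induced by mineralocorticoids, serum and osmotic stress. Its probe set lay at 6.07, 6.46 and 5.98 in SE mice 1, 2 and 3, and EE mice 1, 2 and 3 gave 7.01, 6.87 and 6.42. EE mice 1 and 2 were above every SE mouse, while EE mouse 3 lay just under SE mouse 2. The means were 6.17 ± 0.26 (SD, n = 3) in SE mice and 6.77 ± 0.31 (SD, n = 3) in EE mice, a log2 difference of 0.59 (error 0.20, limma's unadjusted p = 0.0204 with an adjusted p = 1.00). As a fold this is 1.51, with a 95% interval of 1.09 to 2.09, at a mean of 88.7 on the linear scale.
With any mouse left out the difference stayed positive, while limma's unadjusted p was under 0.05 in some fits and above it in others. The difference was 0.76 without EE mouse 3 (limma's unadjusted p = 0.00416) and 0.74 without SE mouse 2 (limma's unadjusted p = 0.0112). Without SE mouse 1, SE mouse 3, EE mouse 1 or EE mouse 2 it was 0.54, 0.50, 0.47 and 0.54, with limma's unadjusted p = 0.0621, 0.0704, 0.0702 and 0.0610. Neutrophil markers were also higher in EE mice. Their median against the SE mean was 0.20, 0.03 and -0.18 in SE mice 1, 2 and 3 and 0.69, 0.42 and 0.50 in EE mice 1, 2 and 3. On both measures EE mouse 1 was the highest and SE mouse 3 the lowest, and the mice between them came in different orders. From the highest down these were EE mouse 2, SE mouse 2, EE mouse 3 and SE mouse 1 for Sgk1. For the markers they were EE mouse 3, EE mouse 2, SE mouse 1 and SE mouse 2. The part of neutrophils in the value of Sgk1 was not tested.

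Promoter windows of RefSeq (GRCm38.p6) were searched for the full glucocorticoid response element, and Sgk1 was the one of these genes with an exact match. Each window covers 250 bases before to 50 bases after an annotated start. The element was searched as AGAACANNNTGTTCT, which reads the same on both strands, and its single hexamer as AGAACA on either strand, so that each full element also counts as 2 hexamers. No mismatch was allowed in the hexamers, so variants of the element were not counted. Windows were found for 7 of the 9 genes, with 15 windows in all, and Nr3c1 and Zbtb16 were not matched. Among 32851 windows of the genome, 3 (0.00913%) held the full element and 19.0% the hexamer. Of the 15 windows, 1 held the full element and 4 a hexamer, 3 of them among the 6 windows of Sgk1 and 1 among the 3 of Tsc22d3. The 2 windows shown are the one of Sgk1 with the full element and the one of Tsc22d3 with a hexamer, with the hexamers in capitals. A link between these matches and the log2 differences was not tested.
Sgk1, chr10:21993640-21993939, plus strand: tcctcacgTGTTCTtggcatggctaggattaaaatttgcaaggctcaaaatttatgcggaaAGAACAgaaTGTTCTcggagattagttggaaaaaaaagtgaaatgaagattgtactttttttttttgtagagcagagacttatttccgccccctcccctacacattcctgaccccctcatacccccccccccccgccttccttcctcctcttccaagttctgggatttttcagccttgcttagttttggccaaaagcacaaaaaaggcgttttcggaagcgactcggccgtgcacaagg
Tsc22d3, chrX:140600473-140600772, minus strand: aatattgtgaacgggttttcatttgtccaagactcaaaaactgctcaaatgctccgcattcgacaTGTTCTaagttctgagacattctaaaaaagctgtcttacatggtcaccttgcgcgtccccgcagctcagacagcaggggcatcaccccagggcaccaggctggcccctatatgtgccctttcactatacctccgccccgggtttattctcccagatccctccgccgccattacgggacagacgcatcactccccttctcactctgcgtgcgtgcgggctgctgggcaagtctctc
In the window of Sgk1 the hexamers begin at positions -242, -189 and -180 relative to the start site of that window. Those at -189 and -180 form the full element. In the window of Tsc22d3 the hexamer begins at -185. The 6 windows of Sgk1 and the 3 of Tsc22d3 have different start sites, so these positions hold only for the windows shown. These are matches of letters and not measurements of binding, and glucocorticoid receptor sites in other genes often lie outside such windows.

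Of the targets that are transcription regulators, Per1 encodes a repressor of the circadian clock that is also an early target of the receptor. It lay at 7.64, 7.65 and 7.58 in SE mice 1, 2 and 3, and EE mice 1, 2 and 3 gave 7.74, 7.49 and 7.31. The SE mice were within 0.07 of each other and the EE mice lay on both sides of them, with SDs of 0.04 and 0.22. The log2 difference was -0.11 (error 0.14, 95% interval -0.43 to 0.22), and 0.00 without EE mouse 3, the lowest.
Klf9 encodes a Krüppel-like factor. It lay at 6.11, 6.09 and 6.05 in SE mice 1, 2 and 3, and EE mice 1, 2 and 3 gave 5.92, 6.13 and 6.20. The SE mice again lay inside the range of the EE mice, and the log2 difference was 0.00 (95% interval -0.28 to 0.28). Zbtb16 encodes PLZF, a zinc finger factor of innate-like T cells. Its values were 6.58, 6.59 and 6.46 in SE mice 1, 2 and 3, and EE mice 1, 2 and 3 gave 6.57, 6.47 and 6.65, with a log2 difference of 0.02 (95% interval -0.24 to 0.29). EE mouse 3 was the highest and the mice of both groups were interleaved. For Klf9 and Zbtb16 the values without EE mouse 3 were -0.06 and -0.02.

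The 9 genes did not move as 1 unit between mice. EE mouse 3 was the lowest mouse for Nr3c1, Tsc22d3 and Per1 and the highest for Zbtb16, Ddit4 and Klf9, so it was at an end of the range in 6 of 9 genes, against 52.2% of all probe sets. The SD was larger in EE than in SE mice for 7 of 9 genes, against 59.1% of all probe sets, with Fkbp5 and Dusp1 the exceptions. The median of the 8 targets against the SE mean was -0.03, 0.04 and -0.04 for SE mice 1, 2 and 3 and 0.11, 0.03 and 0.12 for EE mice 1, 2 and 3. EE mouse 2 lay within the SE mice on this measure. The same measure for red cell markers gave 0.23, -0.06 and -0.13 for SE mice 1, 2 and 3 against -0.62, -0.81 and -0.26 for EE mice 1, 2 and 3. For B cell markers it gave -0.31, 0.11 and 0.19 against 0.01, 0.05 and -0.96, and EE mouse 3 was the lowest mouse for 11 of 11 of them. The part of these cell markers in the values of the 9 genes was not tested.

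**Figure D3:**
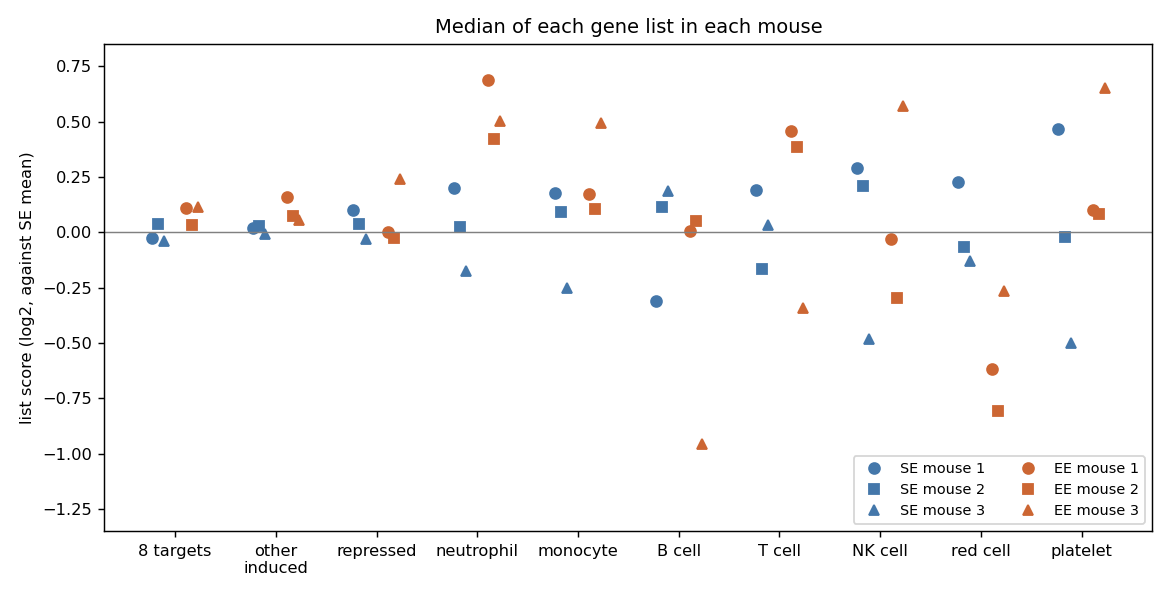
Median over the genes of each list of the difference from the SE mean (log2), 1 point per mouse, for the 8 targets, other genes induced or repressed by glucocorticoids and markers of 7 blood cell types. The targets stay between -0.04 and 0.12 in all mice, neutrophil markers are higher and red cell markers lower in each EE mouse than in each SE mouse, and EE mouse 3 is lowest for B cell markers.

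The genes whose values over the 6 mice were most like those of Nr3c1, among 5600 other genes with a mean of 100 or more, were Gps1, Eif3d and E330033B04Rik (Pearson r = 0.995, 0.995 and 0.992, Spearman rho = 0.886, 1.00 and 1.00). Like the receptor gene, they were lowest in EE mouse 3, and without EE mouse 3 and SE mouse 1, the mice farthest from the median of Nr3c1, r was 0.90, 0.98 and 0.96 over 4 mice. For Tsc22d3 they were Trmt2b, Ilkap and Arhgap4 (Pearson r = 0.996, 0.990 and 0.989, Spearman rho = 0.943, 1.00 and 0.943), also lowest in EE mouse 3, with r = 0.98, 0.97 and 0.93 without the same 2 mice. With 6 mice such values are common, as 7.80% of the 5600 genes had r above 0.9 with Nr3c1 and 4.30% with Tsc22d3, and no test was made because the genes were chosen for their likeness.

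Around the receptor, none of 13 measured chaperones and cochaperones that hold it ready and none of 12 coregulators that carry its signal passed an unadjusted p of 0.05 in limma with all mice in the fit. Of the 13 chaperones and cochaperones, 9 had negative log2 differences, with a median of -0.11, beside 51.6% of all probe sets. Without EE mouse 3 it was 7 of 13, with a median of -0.03. Bag1, a cochaperone of HSP70 that binds the receptor, had the smallest p, with values of 8.11, 7.96 and 7.78 in SE mice 1, 2 and 3 and 7.33, 7.48 and 7.94 in EE mice 1, 2 and 3. Its log2 difference was -0.37 (error 0.19, limma's unadjusted p = 0.0867), and -0.55 without EE mouse 3 (limma's unadjusted p = 0.00728), the only EE mouse above an SE mouse. Hspa1b, an inducible HSP70 gene named for this count, was lower without SE mouse 1 (-0.57, limma's unadjusted p = 0.0192). Its mean of 16.4 on the linear scale is near the bottom of the array's range. St13, the HSP70-interacting protein HIP, had a difference of -0.23 (error 0.12), with all EE mice below all SE mice, and one of -0.14 without EE mouse 3. Of 12 coregulators, 11 had negative log2 differences, with a median of -0.10, and EE mouse 3 was the lowest mouse for 8 of 12. Without EE mouse 3 the direction did not hold, as 4 of 12 were negative and the median was 0.01. The smallest p belonged to the acetyltransferase gene Crebbp and to Hdac2, a deacetylase that glucocorticoid repression draws on, with log2 differences of -0.18 (error 0.14) and -0.31 (error 0.25), which were -0.15 and -0.02 without EE mouse 3.
Among 8 genes of related receptors and of hormone handling, 1 was higher in EE mice, none was lower, and the median was 0.08. The shares of all probe sets at an unadjusted p under 0.05 in limma were 1.45% higher and 2.3% lower. The 1 higher gene was Abcb1b, which encodes a P-glycoprotein that pumps glucocorticoids out of cells. Its values were 3.94, 3.46 and 3.70 in SE mice 1, 2 and 3 and 4.21, 4.32 and 3.93 in EE mice 1, 2 and 3, a log2 difference of 0.46 (error 0.17, limma's unadjusted p = 0.0295). This lies near the bottom of the array's range, with a mean of 15.2 on the linear scale, and the limma p was above 0.05 without SE mouse 2 (0.103), SE mouse 3 (0.0671), EE mouse 1 (0.0784) or EE mouse 2 (0.0960). Pgr, the progesterone receptor gene, had a log2 difference of -0.21 (error 0.13), and without SE mouse 1 it was lower (-0.32, limma's unadjusted p = 0.0489). It too lies near the bottom of the range, with a mean of 17.8 on the linear scale.

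Of 26 other genes that glucocorticoids are known to induce, 4 were higher in EE mice at an unadjusted p under 0.05 and none was lower. Beside this, 1.45% of all probe sets were higher and 2.3% lower. The median log2 difference of the 26 genes was 0.08. Inflammatory signals also induce several of these genes, so the list is not specific to the hormone. The 4 genes were Rgs2, a regulator of G protein signalling, Anxa1, the anti-inflammatory annexin of neutrophils and monocytes, Zfp36, which encodes the mRNA-destabilizing protein tristetraprolin, and Lcn2, a siderophore-binding protein of neutrophil granules.
Anxa1 lay at 6.83, 6.94 and 6.46 in SE mice 1, 2 and 3, and EE mice 1, 2 and 3 gave 7.51, 7.57 and 6.995, a log2 difference of 0.62 (error 0.20, limma's unadjusted p = 0.0179). Rgs2 had 9.00, 8.94 and 8.63 for SE mice 1, 2 and 3 and 9.31, 9.33 and 9.19 for EE mice 1, 2 and 3, a log2 difference of 0.42 (error 0.14, limma's unadjusted p = 0.0169). Every EE mouse was above every SE mouse for both. Rgs2 has 2 probe sets and their mean gave 0.22 (limma's unadjusted p = 0.110). Zfp36 and Lcn2, named as the remaining genes of the count, had log2 differences of 0.37 (error 0.13) and 0.76 (error 0.31).
The count of 4 became 0 without SE mouse 3, 1 (Rgs2) without EE mouse 1, 2 (Zfp36 and Mt1) without EE mouse 2 and 7 without EE mouse 3, and 3 without SE mouse 1 or SE mouse 2. The receptor gene Il1r2 of this list is also a neutrophil marker here. In the same comparison 9 of 15 neutrophil markers (median 0.61) were higher by the same threshold, beside 1.45% of all probe sets. Of 10 red cell markers (median -0.69), 7 were lower, beside 2.3% of all probe sets. These 7 became 4 without SE mouse 1 or without EE mouse 2. None of 11 B cell, 11 T cell, 10 natural killer cell and 12 platelet markers reached an unadjusted p of 0.05 from limma, while 1 of 12 monocyte markers, Mpeg1, did and was higher. That count was 0 without EE mouse 3 or any of the SE mice (without SE mouse 3, Adgre4 was lower, -0.51, limma's unadjusted p = 0.0277) and 2 without EE mouse 1. The 12 platelet markers had positive log2 differences, with a median of 0.31, and Gp9 was higher without SE mouse 1 (0.53, limma's unadjusted p = 0.0236). Without EE mouse 3 the platelet median was 0.11, and without SE mouse 3 it was 0.08. The counts of neutrophil markers were 8 to 10 with any mouse left out, and 7 of 11 T cell markers were higher without EE mouse 3 and 2 without SE mouse 1. The mean level of the neutrophil list lay between 6.69 and 7.08 on the log2 scale in SE mice and between 7.25 and 7.57 in EE mice. That of the red cell list lay between 8.52 and 8.91 in SE mice and between 7.93 and 8.37 in EE mice. The part of cell numbers in the values of the induced genes was not tested.

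**Figure D4:**
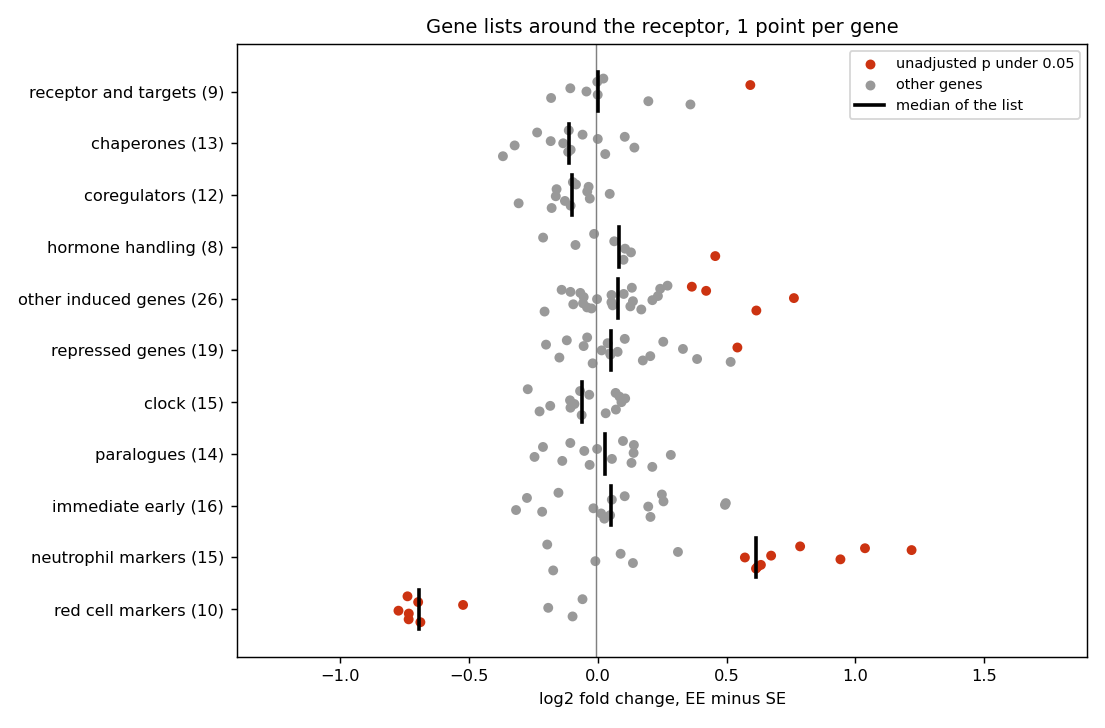
Log2 fold changes (EE minus SE) of the genes in each list, 1 point per gene with the number of measured genes in parentheses, red where the unadjusted p from limma was under 0.05, and black lines at the list medians. The receptor and its targets centre on 0.00, with Sgk1 at 0.59, while neutrophil markers have a median of 0.61 and red cell markers one of -0.69.

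For 19 inflammatory genes that glucocorticoids repress, the median log2 difference was 0.05, or -0.02 without EE mouse 3. At an unadjusted p under 0.05 in limma, 1.45% of all probe sets were higher and 2.3% lower. In this list 1 gene was higher in EE mice and none was lower. The gene was Il1b, the cytokine interleukin 1β of myeloid cells, at 9.17, 9.16 and 8.83 in SE mice 1, 2 and 3, and EE mice 1, 2 and 3 gave 9.63, 9.45 and 9.71. All EE mice lay above all SE mice, with a log2 difference of 0.54 (error 0.14, limma's unadjusted p = 0.00617). Ccl3, a chemokine, had one of 0.52 (error 0.24, limma's unadjusted p = 0.0715), and without SE mouse 2 it was 0.67 (limma's unadjusted p = 0.0431), which made the count 2.
The 15 clock genes beside Per1, the 14 paralogues of the targets and the 16 immediate early genes had median log2 differences of -0.06, 0.03 and 0.05, and limma gave 0 genes with p under 0.05 in either direction. Leaving out SE mouse 1 or SE mouse 3 brought the median of the paralogues to -0.02 or -0.03. The smallest p among the clock genes belonged to Tef and Bhlhe41, transcriptional regulators of clock output, with -0.27 (error 0.15) and -0.23 (error 0.13), and the mean of the probe sets of Tef gave 0.02. Among the paralogues it belonged to Ddit4l, a relative of Ddit4, with 0.21 (error 0.11), and to Dusp6, a phosphatase of the kinase ERK, with 0.28 (error 0.15). Among the immediate early genes it belonged to Jund, with -0.27 (error 0.12), and Ier2, with 0.49 (error 0.22). Their limma p was 0.0575 and 0.0619. Single mice changed these counts of 0. Without EE mouse 3, Jund was lower (limma's unadjusted p = 0.0201) and the clock repressor Nr1d2 higher (0.36, limma's unadjusted p = 0.0494), without EE mouse 2, Ier2 and Ier3 were higher (limma's unadjusted p = 0.00379 and 0.0118), and without SE mouse 3, Fos was lower (-0.46, limma's unadjusted p = 0.0200).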

How the data were processed

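Total RNA from whole blood of 3 EE and 3 SE mice was hybridized to Affymetrix whole-transcript arrays. The authors normalized the arrays by RMA (Bioconductor package affy) and deposited log2 values, which were used without further scaling. RMA makes the arrays more alike in distribution, so differences in total RNA are lost and small folds can shrink. The deposited values still differed, with a median of 5.11 for EE mouse 3 and of 5.03 to 5.07 for the other arrays. The sources used here give no genome build. Each column was assigned to its mouse by accession and title. The array generation in the methods differs from that of the probe annotation used.

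In R 4.3.3, limma 3.58.1 (lmFit and eBayes, defaults, no covariate) was run on all 41345 probe sets, with Benjamini-Hochberg adjustment over all. The p threshold was 0.05, as in the study, and intervals are moderated 95% intervals per probe set. The code was tested on simulated data. Symbols came from the probe annotation (1820 probe sets name several genes and were not named, and 16004 name none). In lists, the probe set with the highest mean stood for a gene, and 22 listed genes have no probe set of their own. No depth applies to arrays, and 3 mice per group limit precision. The p-values set the difference of the group means against the moderated spread between mice. As cage membership is not given, they take no account of shared cages. Mice were housed in groups, so the arrayed mice of a housing type may have shared an enclosure. In that case housing and cage could not be told apart.

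The members and lists were chosen with earlier results of these data known. Named are every member, in each list the 2 genes with the smallest p, and for Nr3c1 and Tsc22d3 the 3 genes most like them. Alternatives covered expression minimum, Entrez filter, scaling, limma settings, array weights, the mouse number as a block, single mice and the summary of probe sets.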

Additional observations from a re-analysis of the deposited data

How the results depend on the processing

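Over 15 alternatives the number of members at an adjusted p under 0.05 from limma stayed at 0, and so did that of all probe sets, and 0 members were lower at an unadjusted p under 0.05. The number that were higher was 1, or 0 to 1 with a mouse left out (Dusp1 in place of Sgk1 without SE mouse 1, Ddit4 without EE mouse 2, 0 without SE mouse 3 or EE mouse 1), and 0 under both expression minimums (Entrez ID with a mean of 100, or 100 in at least 3 arrays), which leave out Sgk1 and 4 other members. The median log2 difference stayed between -0.02 and 0.05. Sgk1, Ddit4 and Dusp1 kept a positive and Fkbp5 and Per1 a negative sign wherever fitted, with Sgk1 between 0.47 and 0.76. The mouse number as a replicate block left 1 higher member. Deviations of same-numbered mice from their group means correlated at 0.03, -0.04 and -0.03 over all probe sets. With 3 mice per group, such values cannot show whether same-numbered mice shared a cage or batch.

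Members near 0 changed sign, and the cause was not tested. With array weights Nr3c1 was 0.0016, Tsc22d3 0.029, Zbtb16 -0.017 and Klf9 -0.032. Klf9 was -0.0073 with equal array medians and Tsc22d3 0.021 after quantile normalization. With a mouse left out, Nr3c1 ranged from -0.10 to 0.050, Tsc22d3 from -0.050 to 0.057, Zbtb16 from -0.023 to 0.071 and Klf9 from -0.060 to 0.083, with the end opposite to the fit of all mice reached without EE mouse 3 in each. Tef was 0.025 as the mean of its probe sets.

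The limits are 3 mice per group, 1 array that stands apart, 5 members with means under 100 and no stated batch, cage or time of day.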
